A study of Homo sapiens with 6 samples.

Results

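The transcripts described here are 8 secreted signals that epithelial cells can make: the chemokines CXCL1, CXCL2, CXCL3, CXCL8, CXCL16 and CCL20 and the interleukin 1 family cytokines IL1A and IL18. They were chosen by gene symbol from the deposited table of 17269 genes, and all 8 were found and passed the filter on low counts that left 13104 genes for testing. The RNA came from HCT116, an established human colorectal carcinoma cell line, grown in culture with no treatment named. The control group is labelled shCtrl in the sample titles and WT under genotype, and the other group carries a short hairpin RNA (shPRSS22) with the genotype PRSS22 knockdown, each with 3 libraries. The labels do not name the hairpin sequence, how many hairpins or clones were used, the time after their introduction, or whether the libraries of a group came from separate cultures, so p-values may measure only technical spread. PRSS22 encodes a secreted trypsin-like serine protease, and the comparison asks which transcripts differ when it is depleted.

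Chemokines are small secreted proteins that bind G protein-coupled receptors and draw leukocytes along their gradients. CXCL1, CXCL2, CXCL3 and CXCL8 share a receptor, CXCR2, and attract neutrophils, CCL20 binds CCR6 on dendritic cells and lymphocytes, and CXCL16 is made as a membrane-bound ligand of CXCR6 that sheddases release. IL1A and IL18 are made without a signal peptide and reach the outside when cells are damaged or after proteolytic processing. The intestinal epithelium keeps IL18 at a steady level, whereas transcription of CXCL1, CXCL2, CXCL3, CXCL8 and CCL20 is induced by NF-kB, and their mRNAs carry AU-rich elements that shorten their life.

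Each library held 14920523 to 15466647 estimated counts. PRSS22 itself stood at 9.38 to 10.1 CPM in shCtrl and 2.61 to 3.16 CPM in shPRSS22 (log2 fold change -1.74), where CPM is the count per 1000000 of the library's scaled total. Of 10 epithelial markers 8 had enough counts to test, with EPCAM at 344 and 348 CPM in the 2 groups. Of these CDH1 (log2 fold change 0.15) and CLDN7 (0.29) were higher in shPRSS22 and CLDN4 (-0.25) was lower. The other 5 did not pass an adjusted p threshold of 0.05, which 39.1% of all tested genes passed. The part of these markers in the results was not tested. PTPRC, the marker of all leukocytes, had 0 counts in shCtrl and at most 1 count in a shPRSS22 library. Only CD68 and CSF1R of 15 immune markers could be tested. In edgeR CD68 was higher in shPRSS22 (log2 fold change 0.24, adjusted p = 0.0271), with overlapping groups, and CSF1R (0.35, adjusted p = 0.346) did not pass. DESeq2 called 0 immune markers. The summed level of the immune markers in the table was 15.5 to 17.8 CPM in shCtrl and 18.0 to 20.9 CPM in shPRSS22, most of it CD68, and its part in the results was not tested. In bulk RNA, fewer cells that express a gene and less RNA per cell cannot be told apart.

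The stretches of DNA just before the transcription start are shown for 6 members, because CXCL1, CXCL2 and CXCL3 are near copies of one another and the level of all 6 is set in part there. Each line is the 250 bases before the RefSeq start, 5′ to 3′ on the gene's own strand (GRCh38.p14), and CXCL16 and IL18 had no entry. Capitals mark every match to 4 short motifs searched on both strands: GGAATTTCC, a form of the NF-kB site; TGANTCA, the AP-1 site; TGACNNNGC, the core of the antioxidant response element; and TATAAA, the TATA box. The motifs were chosen with the sequences in view, and no capitals of 2 motifs overlap.
CXCL1: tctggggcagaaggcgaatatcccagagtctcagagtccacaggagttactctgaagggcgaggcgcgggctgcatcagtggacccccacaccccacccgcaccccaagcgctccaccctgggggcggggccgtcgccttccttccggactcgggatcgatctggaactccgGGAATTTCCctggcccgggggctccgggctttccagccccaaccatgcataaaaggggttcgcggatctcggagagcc
CXCL2: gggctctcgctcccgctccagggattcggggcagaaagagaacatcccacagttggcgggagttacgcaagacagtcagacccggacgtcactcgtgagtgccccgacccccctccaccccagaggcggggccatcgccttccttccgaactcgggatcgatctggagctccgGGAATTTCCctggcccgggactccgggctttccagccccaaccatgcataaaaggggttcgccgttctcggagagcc
CXCL3: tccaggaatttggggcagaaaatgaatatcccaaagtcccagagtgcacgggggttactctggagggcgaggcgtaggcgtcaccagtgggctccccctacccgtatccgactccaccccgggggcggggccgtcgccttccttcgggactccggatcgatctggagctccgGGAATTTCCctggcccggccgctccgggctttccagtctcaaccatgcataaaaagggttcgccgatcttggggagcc
CXCL8: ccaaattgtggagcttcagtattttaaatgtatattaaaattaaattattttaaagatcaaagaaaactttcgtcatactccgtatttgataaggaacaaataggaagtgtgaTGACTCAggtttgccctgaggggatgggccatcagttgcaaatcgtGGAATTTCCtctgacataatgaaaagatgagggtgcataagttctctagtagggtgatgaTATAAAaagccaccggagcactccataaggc
CCL20: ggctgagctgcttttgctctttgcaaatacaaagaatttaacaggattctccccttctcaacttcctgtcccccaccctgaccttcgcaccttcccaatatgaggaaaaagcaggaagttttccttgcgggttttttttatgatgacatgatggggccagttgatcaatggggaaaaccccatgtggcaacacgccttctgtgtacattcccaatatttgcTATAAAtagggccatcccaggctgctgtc
IL1A: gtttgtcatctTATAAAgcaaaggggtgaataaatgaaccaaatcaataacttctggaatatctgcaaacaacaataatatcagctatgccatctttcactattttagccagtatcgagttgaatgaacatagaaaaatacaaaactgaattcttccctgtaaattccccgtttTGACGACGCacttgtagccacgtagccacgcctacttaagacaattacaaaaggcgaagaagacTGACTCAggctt

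The windows lie at chr4:73869143-73869392 (CXCL1, plus strand), chr4:74099196-74099445 (CXCL2, minus), chr4:74038690-74038939 (CXCL3, minus), chr4:73740319-73740568 (CXCL8, plus), chr2:227813592-227813841 (CCL20, plus) and chr2:112784494-112784743 (IL1A, minus). GGAATTTCC was found once in each of CXCL1, CXCL2, CXCL3 and CXCL8, where it began 78, 77, 78 and 91 bases before the start. Among 35116 promoter windows of the same length, 145 (0.413%) held it. CXCL8 and IL1A also held TGANTCA, which 6.57% of windows hold, and IL1A held TGACNNNGC, which 10.9% hold. TATAAA began 31 bases before the start in CXCL8 and 29 bases before it in CCL20, but 239 bases before it in IL1A, and 10.7% of all windows hold it. The windows of CXCL1 and CXCL3 were 81.4% identical, those of CXCL2 and CXCL3 73.3% and those of CXCL1 and CXCL2 68.0%, against 42.8% for CXCL1 and CXCL8. A match is a description of letters and not evidence that a factor binds, and other forms of these sites were not searched.

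CXCL1, CXCL2, CXCL3 and CXCL8 lie together on the long arm of chromosome 4. In GENCODE 29 (GRCh38) CXCL8 runs from 73740506 to 73743716, CXCL1 from 73869393 to 73871242, CXCL3 from 74036589 to 74038807 and CXCL2 from 74097035 to 74099293, a span of 358.8 kb. CXCL1 and CXCL8 are on the plus strand, CXCL2 and CXCL3 on the minus strand, and each has 4 exons. The coding sequences of CXCL1 and CXCL2 were 93.5% identical, those of CXCL2 and CXCL3 94.4% and those of CXCL1 and CXCL3 90.7%, against 51.6% for CXCL1 and CXCL8. CCL20 (227805739 to 227817564, plus strand) and IL1A (112773915 to 112784590, minus strand) lie far apart on chromosome 2, CXCL16 on chromosome 17 (4733526 to 4739922, minus strand) and IL18 on chromosome 11 (112143251 to 112164117, minus strand). These outlines take in every annotated transcript of a gene, so an outline can begin before the RefSeq start. It does so for CXCL2, CXCL3, CXCL8, CCL20 and IL1A, whose windows lie partly or wholly inside their outlines. The outline of CXCL1 begins where its window ends.

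In the comparison of shPRSS22 with shCtrl, 4 of the 8 members fell (CXCL1, CXCL8, CXCL16 and CCL20), IL1A rose, and CXCL2, CXCL3 and IL18 did not pass the test. Differences were tested over the whole table with the quasi-likelihood method of edgeR, with Benjamini-Hochberg adjustment over 13104 genes and a threshold of 0.05. Over all genes tested, 39.1% were called, 19.9% higher and 19.3% lower, and the 5 calls among 8 members are a description beside that background. The median log2 fold change of the members was -0.29, beside -0.0056 for all genes. The members were chosen with earlier results of these data known, which limits every such contrast with all genes. The CPM of the groups did not overlap for 7 members, 6 lower and IL1A higher, where 48.6% of all tested genes did not overlap and 24.3% were lower without overlap. DESeq2 called 2 members lower (CXCL1 and CCL20) and 0 higher, beside 1605 genes lower and 1742 higher over the whole table. At an unadjusted p under 0.05 DESeq2 counted 4 lower and 1 higher. The share of all genes at that threshold was not computed, so these counts have no background.

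**Figure D1:**
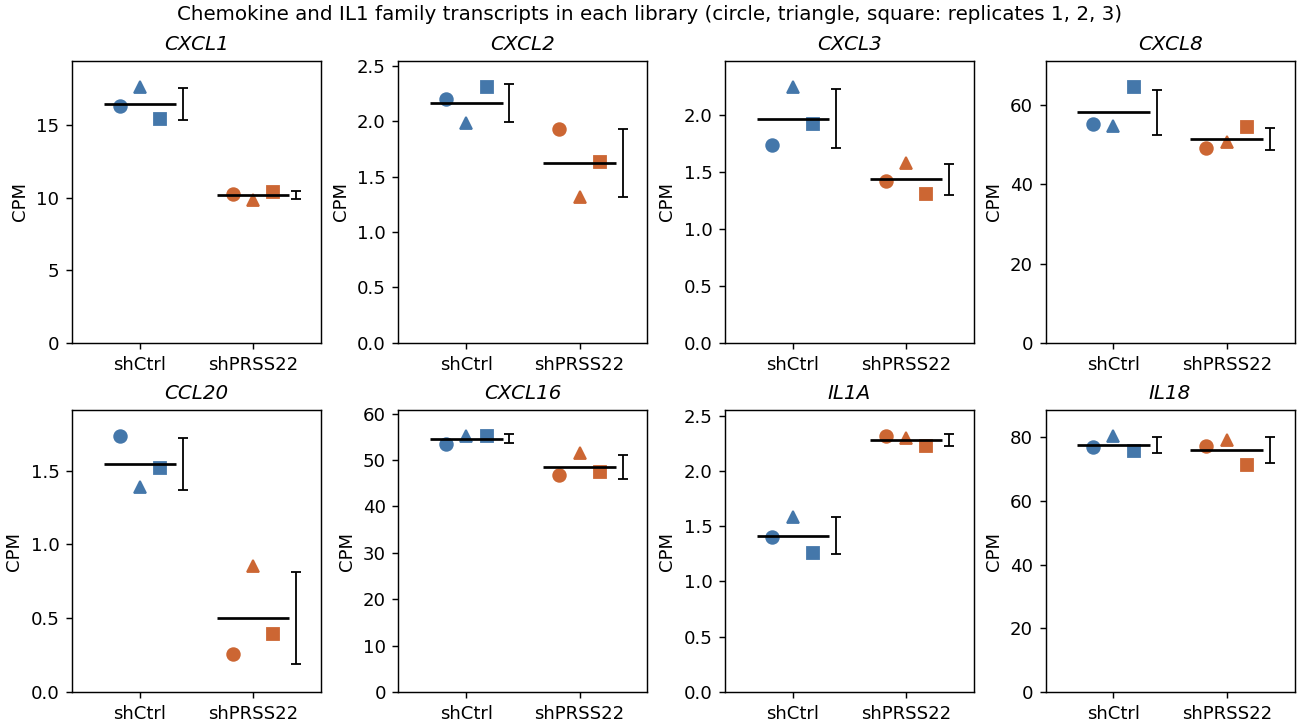
Level of each transcript in CPM (linear axes from 0, a scale per gene) in the 3 shCtrl and 3 shPRSS22 libraries; points are libraries, black lines group means and bars ±1 SD. CXCL1, CCL20 and IL1A show the widest separation, and the IL18 groups overlap.

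Levels between genes are compared per transcript length, with the authors' deposited TPM (transcripts per 1000000). In shCtrl, IL18 was highest at 154 ± 3.85 TPM (SD, n = 3), then CXCL8 at 69.0 ± 7.01, CXCL16 at 46.7 ± 1.71 and CXCL1 at 30.4 ± 1.87. CCL20 (4.75 ± 0.590), CXCL2 (4.3 ± 0.365) and CXCL3 (4.11 ± 0.506) followed and did not differ among themselves beyond their spread. IL1A was lowest at 1.32 ± 0.145 TPM. In shPRSS22 the first 4 kept this order, at 151 ± 6.84, 61.5 ± 3.87, 41.5 ± 1.06 and 18.9 ± 0.903 TPM. CCL20, at 0.81, 2.56 and 1.22 TPM, then lay around the level of IL1A, at 2.21, 2.11 and 2.11 TPM.

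CXCL1, also known as GRO-alpha, is a neutrophil attractant and was the most abundant of the 3 near-identical chemokines. It had 244, 267 and 233 counts in shCtrl replicates 1 to 3 and 159, 150 and 159 counts in shPRSS22 replicates 1 to 3, or, as CPM, 16.3, 17.6 and 15.4 against 10.2, 9.86 and 10.4 CPM. Every knockdown library was below every control library, and the knockdown libraries lay close together. The means were 16.4 ± 1.12 and 10.2 ± 0.270 CPM (SD, n = 3), a log2 fold change of -0.69 (SE 0.091, 95% interval -0.88 to -0.51, adjusted p = 2.37e-07). It was called lower under all 14 other settings tried, with log2 fold changes between -0.74 and -0.64. The authors' deposited table gives -0.69 with a q-value of 2.91e-06.

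CXCL2 and CXCL3, GRO-beta and GRO-gamma, bind the same receptor and were measured with few counts. CXCL2 had 33, 30 and 35 counts in shCtrl and 30, 20 and 25 in shPRSS22. CXCL3 had 26, 34 and 29 counts in shCtrl and 22, 24 and 20 in shPRSS22. For both genes the control libraries were higher in CPM, and the groups came close: the lowest CXCL2 control was 1.98 CPM and the highest knockdown library 1.93 CPM, and for CXCL3 these were 1.74 and 1.58 CPM. The log2 fold changes were -0.41 (SE 0.232, 95% interval -0.88 to 0.062, adjusted p = 0.165) for CXCL2 and -0.45 (SE 0.241, 95% interval -0.95 to 0.037, adjusted p = 0.137) for CXCL3. Neither was called under any of 14 other settings, and the authors' deposited table gives q-values of 0.505 and 0.473. Both intervals include 0 and the value of CXCL1, so these depths do not tell a fall like that of CXCL1 from no change.

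At about 30 counts, counting alone leaves a wide margin. The 20 counts of CXCL2 in shPRSS22 replicate 2 have an exact Poisson 95% interval of 12.2 to 30.9 counts, and the 35 in shCtrl replicate 3 one of 24.4 to 48.7, which cover counting error only. Of 1361 tested genes with a mean of 0.5 to 3 CPM, 15.1% were called, against 47.0% of the 3321 genes with a mean of 40 to 100 CPM. The median SE of the log2 fold change was 0.277 in the first range and 0.048 in the second.

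Because the authors' counting could divide reads among such similar genes, CXCL1, CXCL2 and CXCL3 were also added together. All 18 of their deposited counts were whole numbers, although 2081 to 2162 genes per library carried decimals. Of the 50-base windows of the CXCL1 transcript, 5.73% also occurred in CXCL2 and 0.573% in CXCL3, and no window of 100 bases was shared. The summed counts were 303, 331 and 297 in shCtrl and 211, 194 and 204 in shPRSS22. As 1 feature in the whole table the sum had a log2 fold change of -0.64 (SE 0.080, 95% interval -0.80 to -0.47, adjusted p = 1.24e-07). CXCL1 made up 80.5%, 80.7% and 78.5% of the sum in shCtrl and 75.4%, 77.3% and 77.9% in shPRSS22. These shares did not overlap. An exact two-sided permutation test gave p = 0.1, the smallest that 3 against 3 libraries allow, so it could not pass and decides nothing about the shares.

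CXCL8, interleukin 8, the main human neutrophil attractant, was lower by a small amount. It stood at 55.2, 54.6 and 64.6 CPM in shCtrl and 49.2, 50.7 and 54.5 CPM in shPRSS22. Control replicate 3 was well above the other controls, and the lowest control (54.61 CPM) and the highest knockdown library (54.47 CPM) were almost level. The means were 58.2 ± 5.62 and 51.5 ± 2.72 CPM (SD, n = 3), a log2 fold change of -0.18 (SE 0.059, 95% interval -0.30 to -0.056, adjusted p = 0.0184). With shCtrl replicate 3 left out the log2 fold change was -0.091 (adjusted p = 0.230), and DESeq2 (0.0762) or leaving out knockdown replicate 1 (0.0855) or 2 (0.0644) also ended the call. The authors' deposited table gives a q-value of 0.0957.

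CXCL8 and CXCL1, which lie 125.7 kb apart and act on the same receptor, had estimated falls of different size. There were 0.295, 0.323 and 0.238 CXCL1 counts for each CXCL8 count in shCtrl and 0.208, 0.194 and 0.191 in shPRSS22. This ratio does not depend on how libraries are scaled, and every knockdown library was below every control library. An exact two-sided permutation test gave p = 0.1, the smallest that 3 against 3 libraries allow, so it could not pass and decides nothing. The control ratio was lowest in replicate 3, where CXCL8 stood well above the other controls. The 95% intervals of the log2 fold changes of CXCL1 and CXCL8 do not meet.

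**Figure D2:**
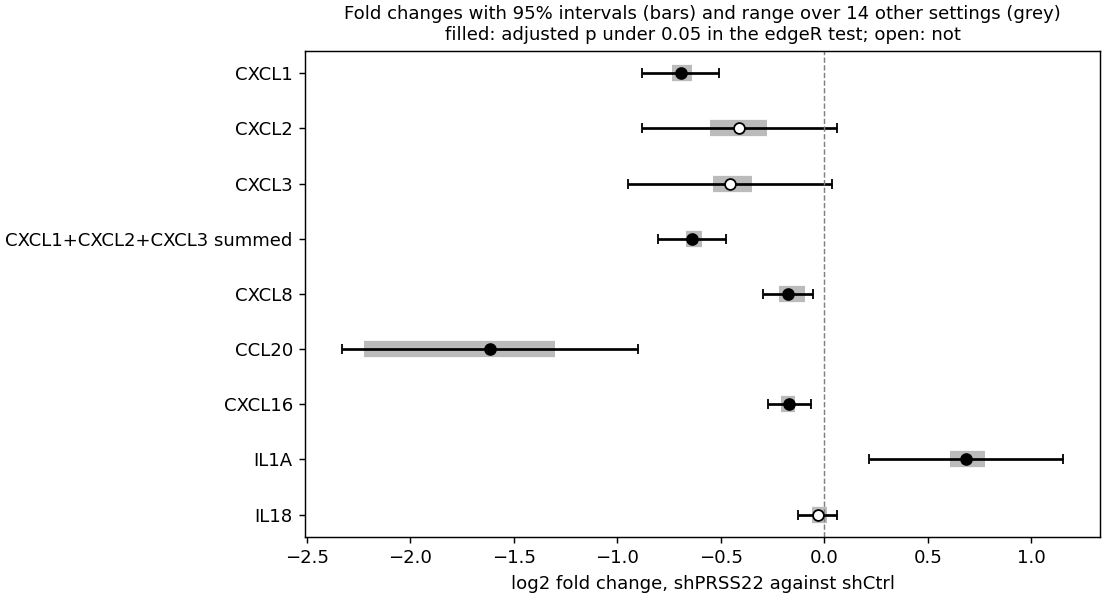
Log2 fold change of each transcript and of the summed CXCL1, CXCL2 and CXCL3 (points), with 95% intervals (black bars) and the range over 14 other settings (grey); filled points passed the threshold in the edgeR test. The intervals of CXCL2, CXCL3 and IL18 include 0, and that of CCL20 is the widest.

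CCL20, the ligand of CCR6, had the largest fold change of the 8 and the fewest counts in the knockdown. It had 26, 21 and 23 counts in shCtrl and 4, 13 and 6 counts in shPRSS22. All knockdown libraries were below all controls, with replicate 2 at 0.854 CPM well above replicates 1 and 3 at 0.257 and 0.392 CPM. The means were 1.55 ± 0.176 and 0.501 ± 0.313 CPM (SD, n = 3), a log2 fold change of -1.62 (SE 0.352, 95% interval -2.33 to -0.90, adjusted p = 4.51e-04).

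The call for CCL20 held under all 14 other settings, with adjusted p between 5.41e-05 and 0.00854. Its size was less firm. The log2 fold change was -2.22 without shPRSS22 replicate 2 and -1.30 without shPRSS22 replicate 1. The exact Poisson 95% intervals were 1.09 to 10.2 counts for the 4 counts of shPRSS22 replicate 1 and 6.92 to 22.2 for the 13 counts of replicate 2, and they overlap. The coefficient of variation in shPRSS22 was 62.5%, where counting alone gives 36.1% at this mean. The authors' deposited table gives -1.63 with a q-value of 0.0107.

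CXCL16, a transmembrane chemokine and scavenger receptor, was slightly lower. It stood at 53.5, 55.1 and 55.2 CPM in shCtrl and 46.8, 51.6 and 47.3 CPM in shPRSS22. The controls lay close together, and knockdown replicate 2 was nearest to them. The means were 54.6 ± 0.991 and 48.6 ± 2.61 CPM (SD, n = 3), a log2 fold change of -0.17 (SE 0.051, 95% interval -0.27 to -0.065, adjusted p = 0.00842). The call was lost without shPRSS22 replicate 1 (adjusted p = 0.0522) and in DESeq2 (0.0611), and the authors' deposited table gives a q-value of 0.0769.

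Among the epithelial markers, 2 of the 10 listed had too few counts to test and were highest in knockdown replicate 1; they are named after their values were seen. VIL1, which encodes villin, had 23 counts there against 10 and 0 in the other knockdown libraries and 0 to 7 in the controls. LGALS4, a galectin of the intestine, had 15 counts there and 0 to 2 elsewhere. CDX2, an intestinal transcription factor, had 168 counts there, 142 and 148 in the other knockdown libraries and 138 to 162 in the controls. Over all genes the knockdown libraries that differed most from each other were replicates 2 and 3, with a chi-square per gene of 3.05 (about 1 from sampling alone), against 2.15 and 2.41 for the pairs with replicate 1. With replicate 1 left out, 2 members were lower (CXCL1 and CCL20) and 1 was higher. The part of these differences in the chemokine values was not tested.

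IL1A, interleukin 1 alpha, an alarm signal released by damaged epithelium, was the only member that rose. It had 21, 24 and 19 counts in shCtrl and 36, 35 and 34 counts in shPRSS22, or 1.4, 1.58 and 1.26 against 2.32, 2.3 and 2.22 CPM. Every knockdown library was above every control, and the knockdown libraries were nearly equal. The means were 1.41 ± 0.165 and 2.28 ± 0.0515 CPM (SD, n = 3), a log2 fold change of 0.69 (SE 0.231, 95% interval 0.21 to 1.16, adjusted p = 0.0182). The coefficient of variation in shPRSS22 was 2.26%, well under the 16.9% that counting alone gives on average at this depth, so this closeness says little about the spread of further libraries. DESeq2 did not call it (adjusted p = 0.131), nor did edgeR when shCtrl replicate 1 (0.0533) or replicate 3 (0.0712) was left out, and the authors' deposited table gives a q-value of 0.164.

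IL18, which epithelial cells store as a precursor cut by inflammatory caspases, was the most abundant member and the best measured. It stood at 76.8, 80.4 and 75.6 CPM in shCtrl and 77.4, 79.1 and 71.3 CPM in shPRSS22, so the groups overlapped. The log2 fold change was -0.032 (SE 0.046, adjusted p = 0.609), and its 95% interval of -0.13 to 0.061 leaves room for only small changes in either direction. The genes whose profile over the 6 libraries was most like that of IL18, among 11155 compared, were SREBF1, LSM6 and BUB3. Their root mean square differences in centred log2 CPM were 0.016, 0.017 and 0.017, which for so flat a profile says only that they too hardly varied.

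**Figure D3:**
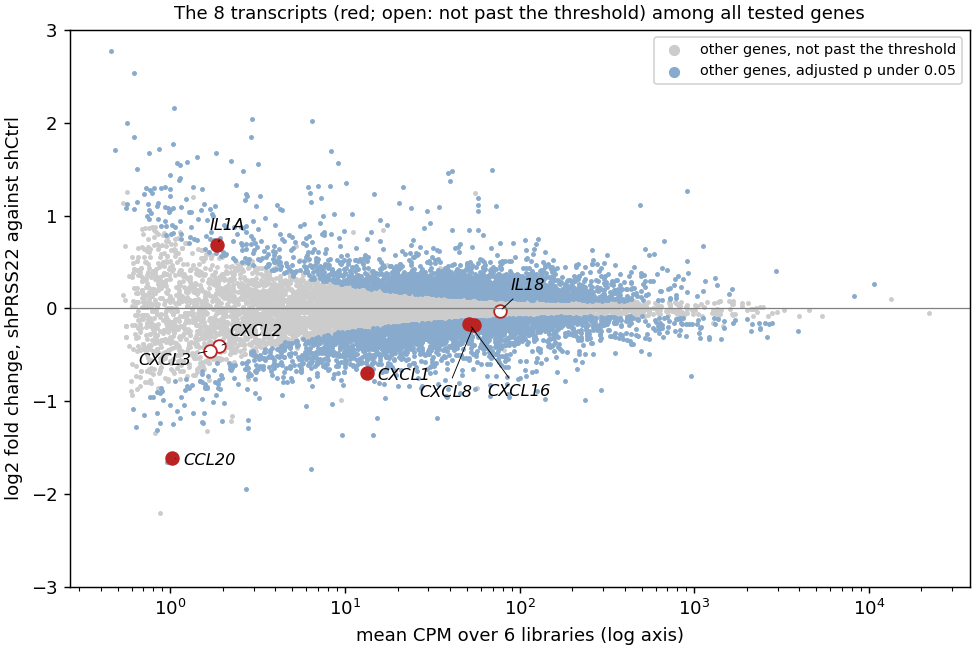
Log2 fold change against mean CPM over the 6 libraries (log axis) for all tested genes, with the 8 transcripts in red, open where not past the threshold; 1 tested gene lies outside the plotted range. Genes near 1 to 2 CPM, where CCL20, IL1A, CXCL2 and CXCL3 lie, need larger fold changes to pass than genes near the level of CXCL8, CXCL16 and IL18.

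Of 16 genes listed for the cluster and its flanks, members included, 10 were tested, 1 rose and 4 fell, 2 of them the members CXCL1 and CXCL8. Of all tested genes 19.9% were higher and 19.3% lower. The median log2 fold change of the 10 was -0.28, beside -0.0056 for all genes. RASSF6, a Ras association domain gene on the CXCL8 side, went from 8.26 ± 0.706 to 12.3 ± 1.20 CPM (SD, n = 3; log2 fold change 0.57, adjusted p = 6.55e-05). On the other side the EGF receptor ligands BTC, betacellulin, at 10.9 ± 0.682 against 7.64 ± 0.218 CPM (-0.51, adjusted p = 2.48e-04), and EREG, epiregulin (-0.34, adjusted p = 1.22e-09), fell. AREG, amphiregulin, which lies between them, had a log2 fold change of -0.053 (adjusted p = 0.271) and did not pass. CXCL5, between CXCL1 and CXCL3, had only 1 to 5 counts per library, and CXCL6, PF4V1, PF4 and PPBP were not in the table under these symbols.

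**Figure D4:**
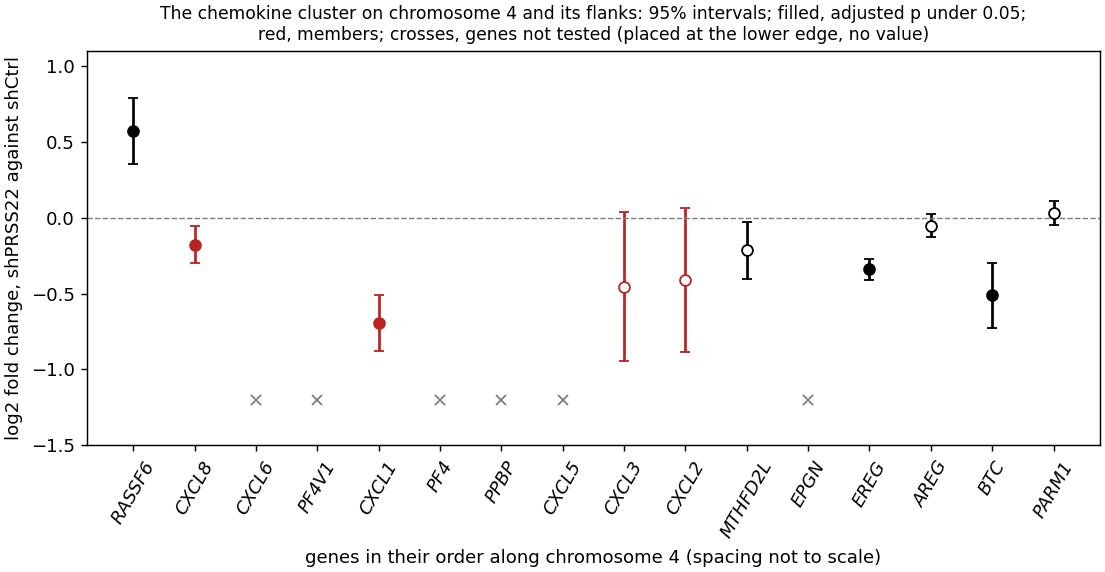
Log2 fold changes with 95% intervals for the genes of the chemokine cluster and its flanks, in their order along chromosome 4 (members in red; filled, adjusted p under 0.05; crosses, genes not tested). The genes that fell are interleaved with genes that did not pass, and RASSF6, at one edge, rose.

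Other chemokines were close to absent. Of 32 listed, 20 were in the table and 1 had enough counts to test. That gene, CCL22, a ligand of CCR4, had 7, 10 and 10 counts in shCtrl and 19, 20 and 25 in shPRSS22 (log2 fold change 1.21, SE 0.324, adjusted p = 0.00342), and it was called in each leave-one-out setting. CCL24, a ligand of CCR3, had 2, 1 and 1 counts against 6, 9 and 8, too few for the filter. CXCL10, an interferon-induced chemokine, had 0 counts in every library. CCL22 and CCL24 were singled out after their values were seen.

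The receptors of these chemokines were scarcely transcribed in the same cells. CXCR2, the receptor of CXCL1, CXCL2, CXCL3 and CXCL8, had 1 to 4 counts per library, CCR6, the receptor of CCL20, 1 to 5, and CXCR6, the receptor of CXCL16, 0 to 2. Of 22 chemokine receptors 19 were in the table and only CXCR4, the receptor of CXCL12, was tested. It stood at 3.56 ± 0.192 and 4.21 ± 0.0882 CPM (SD, n = 3; log2 fold change 0.24, adjusted p = 0.233). It did not pass in edgeR, also at an unadjusted p under 0.05, and DESeq2 called 0 receptors. The other receptors had too few counts for the edgeR test, so its result covers CXCR4 and not the group.

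Of 10 other IL1 family cytokines and antagonists, 6 were in the table, 2 were tested and 1 rose. Over all genes tested, 19.9% were higher and 19.3% lower. IL1RN, the IL1 receptor antagonist, which blocks the receptor that IL1A uses, had 10, 9 and 13 counts in shCtrl and 13, 27 and 21 in shPRSS22. Its groups overlapped, with 13 counts in 1 library of each, and its log2 fold change of 0.90 (SE 0.334, adjusted p = 0.0322) did not pass in DESeq2 (adjusted p = 0.167) or with any 1 of 4 libraries left out, namely shCtrl replicates 1 (0.0916) and 2 (0.116) and shPRSS22 replicates 2 (0.193) and 3 (0.0658). IL18BP, the secreted inhibitor of IL18, was at 3.76 ± 0.504 and 3.78 ± 0.140 CPM (adjusted p = 0.977). IL1B, the other IL1 agonist, had at most 1 count in a library.

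Receptors of the IL1 family and their proximal signalling genes were called at about the rate of all tested genes, and the called ones were higher. Of 17 tested members, out of 22 listed, 7 rose, 0 fell and 10 did not pass, beside 39.1% of all tested genes called, 19.9% higher and 19.3% lower. The median log2 fold change was 0.15, beside -0.0056 for all genes. DESeq2 called 5 of the group higher and 0 lower, beside 1742 genes higher and 1605 lower over the whole table. At an unadjusted p under 0.05 edgeR counted 8 higher and 1 lower. The share of all genes at that threshold was not computed. TAB2, an adaptor that activates the kinase TAK1, went from 135 ± 3.98 to 180 ± 2.33 CPM (SD, n = 3; log2 fold change 0.41, adjusted p = 4.60e-11). IRAK4, the first kinase recruited to the receptor, had a log2 fold change of 0.32 (adjusted p = 0.0117), which did not pass in DESeq2 (0.0715) or when shCtrl replicate 1 (0.0519) or shPRSS22 replicate 3 (0.162) was left out. IRAK1, the next kinase in the chain, rose by 0.32 (adjusted p = 1.61e-06) and IL1R1, the receptor of IL1A, rose by 0.26 (adjusted p = 1.77e-04). IL18R1, the receptor of IL18, had a log2 fold change of 0.27 (adjusted p = 0.0120), a call lost without shPRSS22 replicate 3 (0.0754) and in DESeq2 (0.0918). The adaptor MYD88, at -0.17 (adjusted p = 0.0813), and the coreceptor IL1RAP, at 0.013 (adjusted p = 0.868), did not pass.

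Genes for maturation, release and shedding of the cytokines moved both ways. Of 13 tested members, out of 19 listed, 6 rose, 3 fell and 4 did not pass, beside 19.9% of all tested genes higher and 19.3% lower. The median log2 fold change was 0.099, beside -0.0056 for all genes. The sheddases that can release CXCL16 moved in opposite directions: ADAM17 went from 119 ± 1.48 to 149 ± 7.55 CPM (SD, n = 3; a log2 fold change of 0.32, adjusted p = 4.58e-08) and ADAM10 from 316 ± 6.74 to 286 ± 12.97 CPM (-0.14, adjusted p = 0.00156). The gasdermins, which form membrane pores, also differed in sign: GSDME rose by 0.30 (adjusted p = 0.00117), and GSDMD had a log2 fold change of -0.21 (adjusted p = 0.0197). The GSDMD call did not hold in DESeq2 (0.0721) or when control replicate 1 (0.103), control replicate 2 (0.121) or knockdown replicate 3 (0.0943) was left out, and without shCtrl replicate 1 only 1 gene of this group fell. CASP1, a caspase that cuts the IL18 precursor, had 0 to 2 counts per library. CASP4, another inflammatory caspase, which senses bacterial lipopolysaccharide, rose by 0.23 (adjusted p = 0.00170).

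Factors that control the decay or stability of AU-rich mRNAs were all measured. Of 15 tested members 2 rose, 5 fell and 8 did not pass, which is near the background of 39.1% of all tested genes called. The median log2 fold change was -0.010, beside -0.0056 for all genes. ZC3H12A, also called regnase-1, an endonuclease that degrades cytokine mRNAs and is itself an NF-kB target, went from 9.04 ± 1.54 to 5.88 ± 0.637 CPM (SD, n = 3; log2 fold change -0.62, adjusted p = 3.33e-04). TIA1, a translational silencer (-0.33, adjusted p = 1.37e-08), and ZFP36L1, a decay factor (-0.33, adjusted p = 7.64e-09), fell too. ARID5A, which stabilises some cytokine mRNAs, had a log2 fold change of 0.30 (adjusted p = 0.0132), which passed neither in DESeq2 (0.102) nor with shCtrl replicate 3 left out (0.0556), and CNOT1, the scaffold of the deadenylase complex, rose by 0.13 (adjusted p = 0.00172). ZFP36, tristetraprolin, at 0.17 (adjusted p = 0.169), did not pass. The number that rose was 1 in DESeq2 and without shCtrl replicate 3, and 4 without shCtrl replicate 2 or without shPRSS22 replicate 2.

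**Figure D5:**
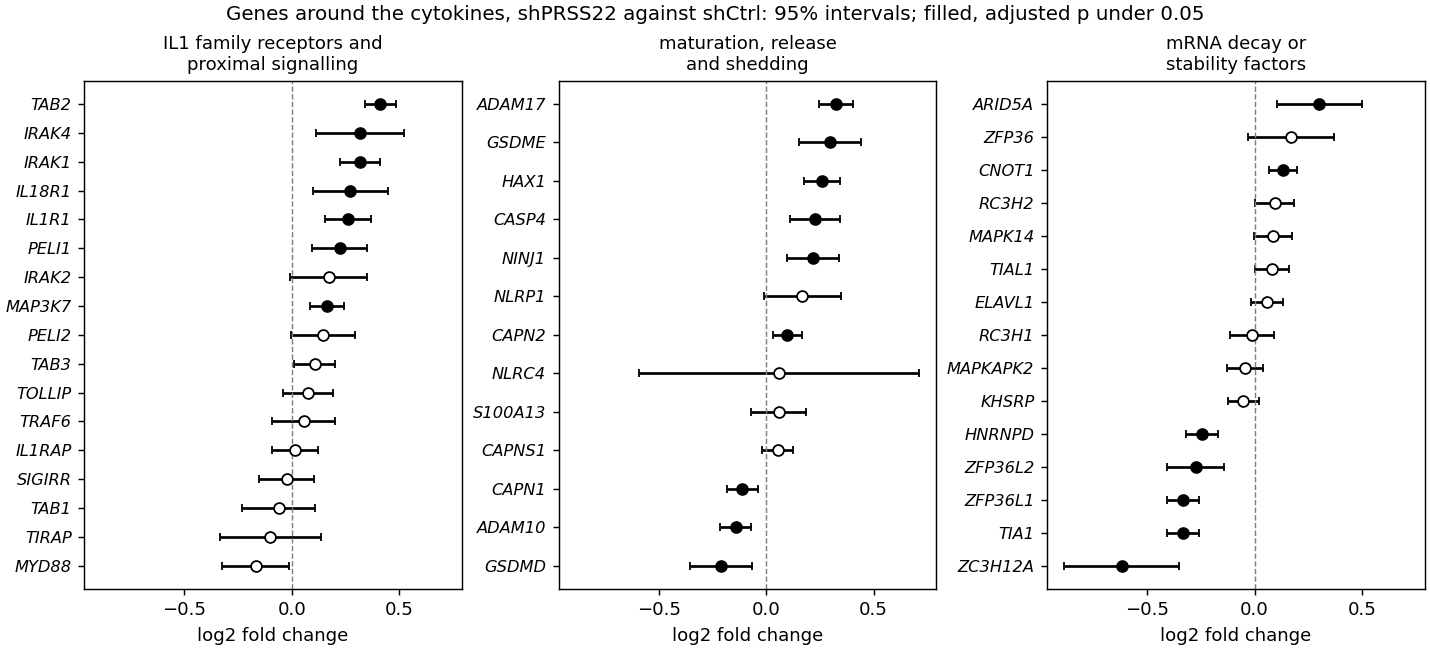
Log2 fold changes with 95% intervals for the tested genes of 3 groups around the cytokines: IL1 family receptors and signalling, maturation and release, and mRNA decay or stability (filled, adjusted p under 0.05). Filled points of the first group all lie above 0, and those of the other groups lie on both sides.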

How the data were processed

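Poly(A)-selected RNA of HCT116 cells was sequenced in 3 shCtrl and 3 shPRSS22 libraries. The submitters' processing notes name RSEM 1.3.1, Bowtie2 2.3.4.3, HISAT2 2.2.1, R 4.3.1, DESeq2 1.4.5, FastQC 0.12.1 and build GRCh38.p13, without their roles. Per the file headers, the authors deposited estimated counts, FPKM, TPM and normalised read counts (a scaled signal) per library, with group means and a log2 fold change, p-value and q-value per gene. Only the estimated counts, the TPM and, where named, the authors' comparison were used; deposited FPKM and normalised counts were not. No strand marking is described, so overlapping antisense reads are not separable.

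Estimated counts were rounded and tested with edgeR 4.0.16 (R 4.3.3): TMM scaling, filterByExpr, robust quasi-likelihood fit, two-sided, Benjamini-Hochberg over all genes tested. The SE is the log2 fold change divided by the square root of F. Alternatives used other scalings, filters, dispersion settings, unrounded counts, DESeq2 1.42.0, a replicate block and each library left out. The members and lists were chosen with earlier results of these data known. From each list, up to 2 genes per direction past the threshold with the largest change and a mean of at least 1 CPM are named; others named were chosen after their values were seen. Promoters are from RefSeq (GRCh38.p14), gene models from GENCODE 29.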

Additional observations from a re-analysis of the deposited data

How the results depend on the processing

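The 4 calls of lower members and 1 of a higher member were the same under 7 of 8 settings that kept all libraries; DESeq2 called 2 lower and 0 higher (1 higher at an unadjusted p under 0.05). Under DESeq2 CXCL8 (log2 fold change -0.18, adjusted p = 0.0762), CXCL16 (-0.17, 0.0611) and IL1A (0.69, 0.131) kept their size and lost their calls. Over all genes DESeq2 called 1605 lower, against 2523, and 1742 higher, against 2603. With each library left out, 2 to 4 members were lower and 0 to 1 higher. Those log2 fold changes ran from -0.22 to -0.091 for CXCL8, -0.21 to -0.14 for CXCL16, 0.61 to 0.77 for IL1A and -0.059 to 0.012 for IL18, whose sign turned without shPRSS22 replicate 3 (0.012, adjusted p = 0.872). CXCL1, CCL20 and the summed chemokines kept their calls in all 14 settings, and CXCL2, CXCL3 and IL18 were called in none.

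The labels do not say whether same-numbered libraries of the groups were paired. The correlations of their deviations from the group means were 0.019, 0.033 and 0.091. For libraries with different numbers they ran from -0.115 to 0.084, and such values cannot decide whether there was pairing. With the replicate number as a block, 2782 genes were higher and 2747 lower, and 4 members were lower and 1 higher, as without it. Depth limits CXCL2, CXCL3, CCL20 and IL1A, which had 4 to 36 counts per library. With the block 5 mRNA decay or stability factors rose, against 2. The filter of a mean of at least 1 CPM leaves CCL22 untested.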
